A study of Drosophila melanogaster with 3 samples.

Results

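The 9 genes described here encode structural proteins of fly muscle or, for Mef2, a regulator of muscle genes: sls, bt, Msp300, Mhc, Mef2 and the muscle actins Act57B, Act79B, Act87E and Act88F. They were taken by name from the 13968 protein-coding genes of the dm6 gene models, and a chromatin immunoprecipitation (ChIP-seq) peak was assigned to a gene if its summit lay in the gene body or within 5 kb of it. By this rule 17 of the 7279 peaks of replicate 1, 14 of the 6769 of replicate 2 and 13 of the 4608 of replicate 3 belonged to the 9 genes. Summits of neighbouring peaks at most 150 bp apart were joined into loci, and 11 of the 3746 loci with a summit of all 3 replicates (shared loci) lay at these genes.

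The protein mapped was CG8119, an uncharacterised protein of Drosophila melanogaster, expressed from a transgene as a fusion with enhanced green fluorescent protein and pulled down with an antibody against that tag. The single group comprised 3 biological replicates of whole prepupae aged 1 day, whose sex was not recorded, and the deposited peaks of each replicate were called against a control alignment that was not analysed here. There was therefore no comparison between conditions and no test, and the values are given by replicate beside those of all genes or all shared loci. Whole animals hold muscle among many other tissues, so strong binding in a few cells and weak binding in many cannot be told apart, RNA was not measured, and a peak near a gene does not show that the gene is regulated by the protein. The depth of each replicate is unknown because the files hold no read counts, and only the lengths of the peak lists can be compared.

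Muscle contracts when myosin of the thick filament pulls on actin of the thin filament within a repeated unit, the sarcomere, whose borders are the Z discs. Giant elastic proteins of the titin family tie the Z disc to the thick filament, linker proteins hold nuclei in place in the muscle fibre, and the transcription factor Mef2 switches on many of the genes concerned. In the prepupa, larval muscles begin to break down while the precursors of the adult muscles persist, and the flight and leg muscles are built later in metamorphosis.

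The sequences around 5 of the shared loci are shown because they are the sites nearest to the starts of sls, Msp300 and Act87E and the strongest of each of these genes, and because 3 of them hold the MEF2 site that is counted further on. They were read from the RefSeq release of the same genome build (dm6) on the strand of the gene, 5′ to 3′, 201 bases each, with the locus centre in the middle. The locus upstream of sls is chr3L:2115799-2115999 (minus strand), those of Msp300 are chr2L:5108033-5108233 and chr2L:5145659-5145859 (plus strand), and those of Act87E are chr3R:13425543-13425743 and chr3R:13428460-13428660 (plus strand). An offset is the distance from the nearest start of the gene, negative upstream. Capitals mark matches to 8 searched words on either strand: the MEF2 site in the lines of Msp300 and at the offset of −340 bp of Act87E, the E-box word CANNTG at −627 bp of Msp300 and −340 bp of Act87E, and the nuclear receptor half-site AGGTCA, on the opposite strand, at −379 bp of Msp300. The lines without capitals held none of the 8 words.
sls, offset −288 bp: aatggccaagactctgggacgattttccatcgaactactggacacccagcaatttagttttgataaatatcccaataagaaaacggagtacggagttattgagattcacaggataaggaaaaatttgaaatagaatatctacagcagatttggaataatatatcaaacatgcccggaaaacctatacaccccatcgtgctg
Msp300, offset −379 bp: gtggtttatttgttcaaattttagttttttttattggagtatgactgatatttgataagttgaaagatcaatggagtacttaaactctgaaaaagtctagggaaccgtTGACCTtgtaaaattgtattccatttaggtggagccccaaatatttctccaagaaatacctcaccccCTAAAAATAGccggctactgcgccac
Msp300, offset −627 bp: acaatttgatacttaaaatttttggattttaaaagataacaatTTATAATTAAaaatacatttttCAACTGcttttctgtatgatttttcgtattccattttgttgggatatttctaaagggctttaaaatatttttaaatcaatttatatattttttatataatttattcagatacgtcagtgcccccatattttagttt
Act87E, offset −340 bp: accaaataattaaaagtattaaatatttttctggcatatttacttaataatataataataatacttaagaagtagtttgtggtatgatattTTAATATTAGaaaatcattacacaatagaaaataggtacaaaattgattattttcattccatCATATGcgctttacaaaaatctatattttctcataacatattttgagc
Act87E, offset 2113 bp: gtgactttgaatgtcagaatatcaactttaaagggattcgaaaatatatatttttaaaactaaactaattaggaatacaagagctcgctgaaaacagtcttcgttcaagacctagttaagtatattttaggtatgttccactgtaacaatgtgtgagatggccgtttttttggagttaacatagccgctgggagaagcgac

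Of the 9 genes, 5 had at least 1 shared locus in the body or within 5 kb (sls, Msp300, Mef2, Act57B and Act87E), and 4 had none (bt, Mhc, Act79B and Act88F). The share among all protein-coding genes was 32.8%. A long gene offers more room for a locus, and the share was 62% of the genes of at least 20 kb and 27.2% of those under 5 kb. Among the members, 3 of the 5 long genes and 2 of the 4 actin genes, all under 5 kb, had a shared locus, and with so few genes neither count sets them apart from genes of their length. In 3 of the 9 genes (sls, Msp300 and Act87E) the centre of a shared locus was at most 500 bp from a start of the gene, beside 9.06% of all protein-coding genes. By length, 2 of the 5 long members and 1 of the 4 short ones had such a locus. The counts were 202 of the 1020 genes of at least 20 kb and 690 of the 10476 under 5 kb. The locus at the Act87E start lay nearer to the body of a noncoding gene, lncRNA:CR45591, than to that of Act87E.

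**Figure D1:**
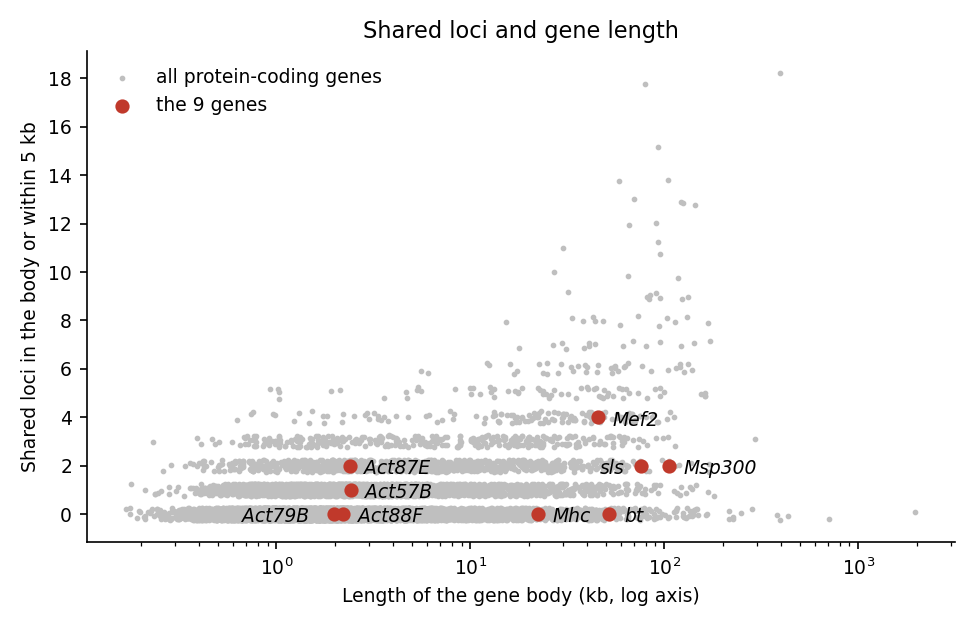
Number of shared loci in the body or within 5 kb (vertical axis; grey points are spread a little up and down so that they do not cover each other) against the length of the gene body in kb (log axis), for all protein-coding genes (grey) and the 9 genes (red). Mef2 has 4 shared loci, sls, Msp300 and Act87E have 2 each and Act57B has 1, while Mhc and bt lie at 0 among long genes that often have some.

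Signal in the deposited lists is the authors' own value per peak, on a scale that the sources do not state, so strength is given as the percentile of the signal within the replicate's own list. The list of replicate 3 was the shortest, so a locus of equal rank has a lower percentile there. Mef2 at −4947 bp ranked 3245 in replicate 2 and 3235 in replicate 3, at percentiles of 52.1 and 29.8. The SDs over the replicates include this difference in list length. The 11 shared loci had a median percentile of 60.9 (range 31.7 to 98.9, averaged over the replicates), and the median over all 3746 shared loci was 66.6. By replicate the medians were 72.6, 76.0 and 51.9 at the 9 genes and 73.3, 71.2 and 58.8 over all shared loci. The members therefore spanned most of the range of binding strength and as a group lay near the middle. The locus upstream of Mef2 was the strongest of the 11 in each replicate, and that within Msp300 at −627 bp came next in each. Between sls at −288 bp and Msp300 at −379 bp the order changed in replicate 3, and both lay above sls at −1570 bp in all replicates. From sls at −1570 bp downwards, the ranges of neighbouring loci over the replicates overlapped.

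**Figure D2:**
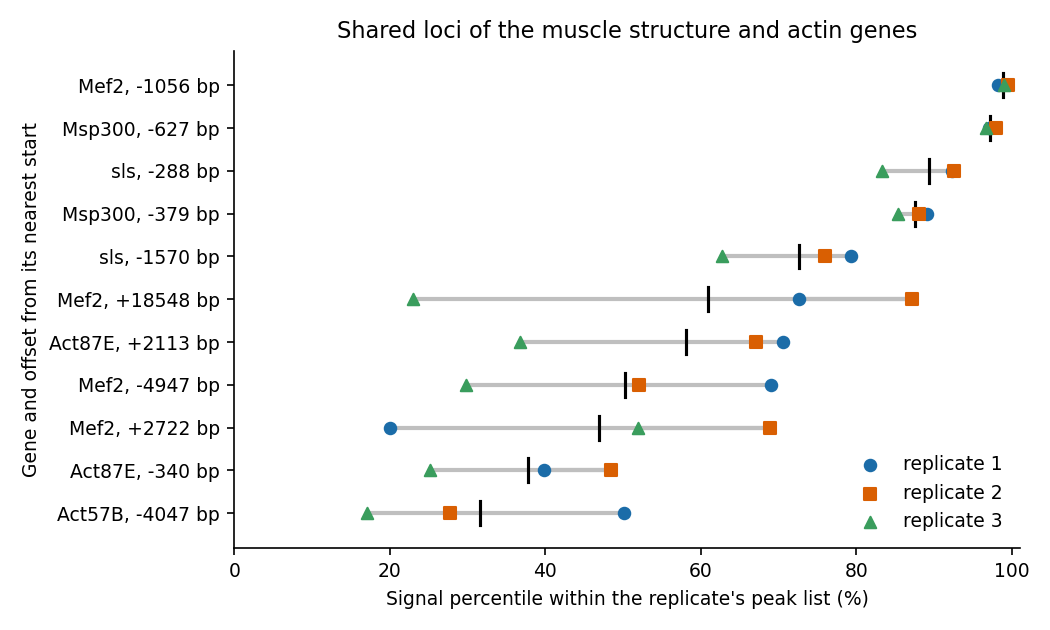
Percentile of the signal within the replicate's own thresholded peak list (horizontal axis, %) for each of the 11 shared loci, ordered by the mean. Coloured symbols are the 3 replicates, the grey line joins the lowest and the highest, and the black tick is their mean. The 4 strongest loci stay at or above 83.3 in every replicate, while 6 of the remaining 7 fall below 40 in at least 1.

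sls encodes Sallimus, whose short forms are called kettin, the titin-like spring that links the Z disc to the thick filament (FBgn0086906, 3L, 2039681 to 2115611, minus strand, 1 annotated start). The strongest locus lay 288 bp upstream of that start (3L, 2115719 to 2116078), where replicates 1, 2 and 3 had signals of 312.967, 301.444 and 194.773. These values were at percentiles 92.3, 92.5 and 83.3 of their lists, or 89.4 ± 5.24 (SD, n = 3), and the summits of the replicates spread over 17 bp. The second shared locus lay 1570 bp upstream, with signals of 176.668, 159.425 and 119.969 (percentiles 79.3, 76.0 and 62.7). Replicate 3 was the lowest at both. Another site at −2613 bp appeared in replicates 1 and 2 at percentiles of 18.0 and 25.5, and 2 further peaks, at −3380 bp (percentile 6.64, replicate 1) and −3541 bp (percentile 23.9, replicate 2), were each seen once. None of these 5 loci lay in the body of sls. The second shared locus was 285 bp from zormin, which encodes another muscle protein of the Z disc and M line. The 3 weaker loci lay within zormin, so their assignment to sls rests on the 5 kb window alone. The start nearest to the second shared locus and to the 3 weaker ones was that of the noncoding gene asRNA:CR45802. The offsets from it were −1317 bp at the second shared locus and −274, 493 and 654 bp at the weaker ones. Those at −3380 and −3541 bp also lay within asRNA:CR45802.

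Msp300 encodes the fly nesprin, a very large protein that ties nuclei and other organelles to the actin and microtubule network of the muscle fibre (FBgn0261836, 2L, 5100877 to 5207002, plus strand, 5 annotated starts). It was the longest of the 9 genes at 106.126 kb, and both of its shared loci lay in introns just upstream of internal starts. At −627 bp (2L, 5145580 to 5145931) the signal was 468.465, 508.593 and 401.8 in replicates 1, 2 and 3, which ranked 216, 137 and 155 in their lists. The percentile was 97.2 ± 0.685 (SD, n = 3), and the summits lay within 15 bp of each other, the closest of the 11 loci. At −379 bp (2L, 5108033 to 5108268) the signal was 257.69, 239.203 and 210.731, or percentiles of 89.04, 88.0 and 85.4. The replicates stood close together at both loci. A further intronic peak, 10198 bp downstream of a start, was found in replicate 1 alone, at percentile 25.2.

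bt encodes Projectin, a titin-like kinase of the sarcomere (FBgn0005666, chromosome 4, 724400 to 776474, plus strand, 52.075 kb). No thresholded peak lay in or within 5 kb of it in any replicate, and the nearest were 31123, 31103 and 31114 bp away. The ranked lists, which also hold peaks that failed the threshold (45667, 44378 and 28104 in replicates 1, 2 and 3), had none there either. Peaks were few on the whole of chromosome 4, a small and largely heterochromatic chromosome. Its thresholded peaks numbered 3, 2 and 1, its ranked peaks 31, 40 and 22, and 1 of its 80 protein-coding genes had a shared locus. Whether binding at bt was weaker than elsewhere on this chromosome cannot be read from counts this small.

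Mhc is the single gene of the muscle myosin heavy chain, which yields its many forms by alternative splicing (FBgn0264695, 2L, 16766566 to 16788766, plus strand, 5 annotated starts). No replicate had a thresholded peak in its window, although a shared locus lay 5351 bp from the gene, just beyond the limit, with signals of 73.5, 67.6 and 66.2 and a percentile of 25.6 ± 5.57 (SD, n = 3). The start nearest to that locus was that of ppk17, at −661 bp. The strongest ranked peaks within the Mhc window had signals of 21.4, 20.3 and 21.5, with irreproducible discovery rates (IDR) of 0.361, 0.683 and 0.308. The IDR is the estimated share of irreproducible peaks among those ranked at least as high. These Mhc peaks lay at −2986, −22 and −1873 bp, at 3 different places, and the threshold of the lists was an IDR of 0.01. Just inside the 5 kb limit, the farthest accepted shared locus from a gene body was that of Act57B, at 4047 bp.

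Mef2, the MADS-box transcription factor of muscle differentiation, had the most loci of the 9 genes (FBgn0011656, 2R, 9913496 to 9958858, minus strand, 3 annotated starts). There were 8 loci, of which 4 were shared, 2 were found in 2 replicates and 2 in 1. Its density was 0.723 shared loci per 10 kb of the gene with its window. The protein-coding genes of at least 20 kb had a median of 0.236 and quartiles of 0 and 0.547, and sls and Msp300 had 0.233 and 0.172. Mef2 lay above the upper quartile of long genes by this count, but 2 of its 4 shared loci lay inside neighbouring genes. With the 2 in its own body alone, over the same length, its density was 0.361. The quartiles count loci in the windows too, so this lower value cannot be set beside them. By the count with the window, sls and Msp300 lay below the median.

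The strongest locus of all 9 genes lay at −1056 bp from the Mef2 start (2R, 9959750 to 9960078). Its signal was 569.872, 727.324 and 573.668 in replicates 1, 2 and 3, which put it at ranks 132, 33 and 50, or percentile 98.9 ± 0.665 (SD, n = 3). This site was nearer to other genes than to Mef2. It lay within Pal1, at −164 bp from a start of it, and at −182 bp from the start of Pdrg1, which is read in the opposite direction. The downstream shared locus, 2429 bp past the end of Mef2, lay within Etf-QO, a gene of mitochondrial electron transfer, 174 bp after its start. There the signal was 144.526, 227.942 and 68.0898, and its percentile ran from 23.0 in replicate 3 to 87.1 in replicate 2, the widest spread of the 11 loci (SD 33.6, n = 3).

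The remaining 2 shared loci of Mef2 lay in its introns. At −4947 bp from an internal start the signals were 132.728, 98.358 and 73.6549 (percentiles 69.0, 52.1 and 29.8), and at 2722 bp they were 63.6212, 133.698 and 100.203 (percentiles 20.03, 68.9 and 51.9). Replicate 1 was the highest at the former and the lowest at the latter. Intronic sites were also seen at −6351 bp in replicates 1 and 3 and at 4074 bp in replicates 2 and 3, with mean percentiles of 31.8 and 41.1. Of the 8 loci, the one within 500 bp of a Mef2 start, at −262 bp, was found in replicate 1 alone (percentile 38.9). A peak at 3495 bp was likewise found in replicate 1, at percentile 14.6. If loci in or nearer to another gene are left out, 2 shared loci remain at Mef2 and the strongest is at percentile 50.3.

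**Figure D3:**
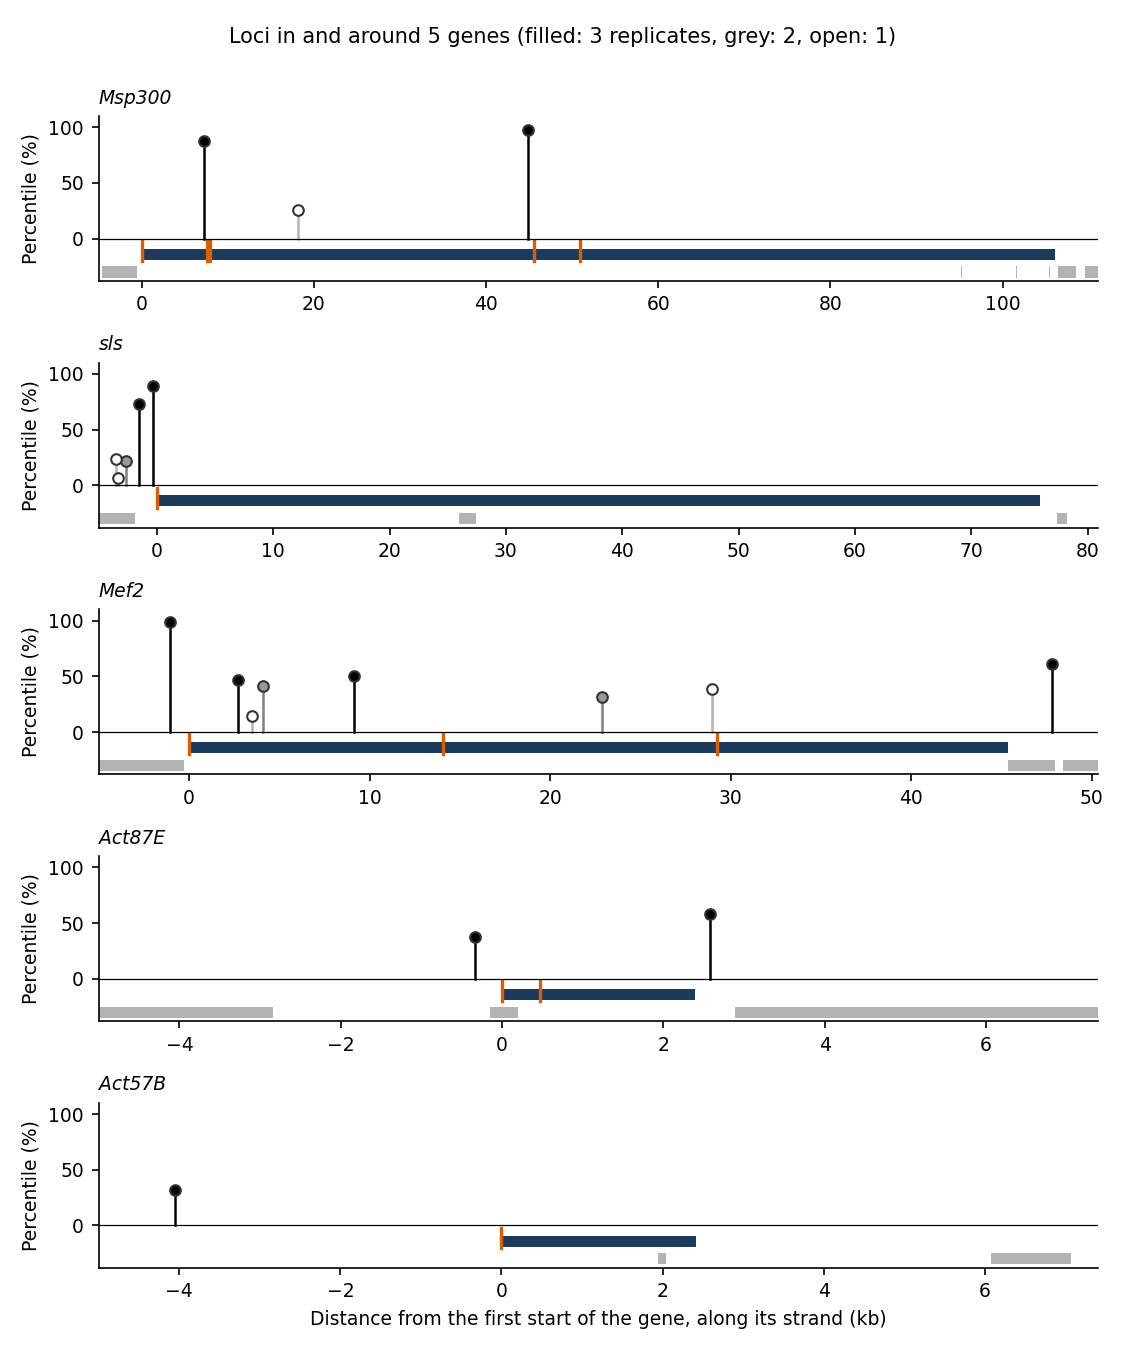
Loci in and around the 5 genes with a shared locus, by distance from the first start along the strand of the gene (kb; each gene has its own scale) and by signal percentile averaged over the replicates that have the locus (%). Black circles are loci of all 3 replicates, grey of 2 and open of 1, dark bars are the named gene, orange ticks its annotated starts and light grey bars other genes. The strongest site of sls stands at the gene's edge, those of Msp300 beside internal starts, and the strongest of Mef2 within a neighbouring gene.

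The 4 muscle actin genes encode nearly identical proteins used in different muscles. Act57B and Act87E are actins of larval and adult body muscles, Act79B is used in muscles of the adult thorax and legs, and Act88F is the actin of the indirect flight muscles. Act87E (FBgn0000046, 3R, 13425983 to 13428375, plus strand) had 2 shared loci and no other peak. At −340 bp (13425347 to 13425852) the signal was 81.9562, 93.2044 and 69.6095, or percentiles of 39.9, 48.4 and 25.2. The summits there spread over 123 bp, the widest of the 11 loci. The body of the noncoding gene lncRNA:CR45591 was 190 bp from this locus, nearer than that of Act87E at 340 bp. The locus 185 bp past the gene's end (13428317 to 13428742) was stronger, with signals of 138.092, 128.615 and 80.6596 (percentiles 70.6, 67.1 and 36.7). It was stronger than the upstream one in all 3 replicates, and it lay 307 bp from the body of yrt, which encodes a protein of epithelial junctions. A further locus inside yrt, 5372 bp from Act87E and so outside its window, reached a percentile of 86.2 ± 10.2 (SD, n = 3).

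Act57B (FBgn0000044, 2R, 20944021 to 20946431, plus strand) had 1 locus, at −4047 bp, between it and Rx, an eye and brain homeobox gene whose body was 2944 bp away. The signal there was 94.213, 70.0667 and 63.4564, and at percentiles of 50.1, 27.8 and 17.1 it was the weakest of the 11 by mean. Its summits spread over 84 bp. When summits were joined only up to 50 bp apart, neither Act57B nor Act87E had a shared locus, and the count of genes fell from 5 to 3.

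Act79B (FBgn0000045, 3L, 21985210 to 21987190) and Act88F (FBgn0000047, 3R, 15439969 to 15442177) had no thresholded peak within 5 kb. The nearest to Act79B lay 12743, 12720 and 88987 bp away in replicates 1, 2 and 3, and the nearest to Act88F 11354, 11960 and 11407 bp. Below the threshold the pair differed. Act88F had ranked peaks with signals of 33.9, 34.3 and 22.0 at −2202, −2314 and −2329 bp (IDR 0.218, 0.219 and 0.740), while Act79B had a single one in replicate 3, of signal 19.7 at −1227 bp (IDR 0.740). The sites at Act88F thus lay within a short stretch upstream of the gene in all replicates and were far from passing in each.

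**Figure D4:**
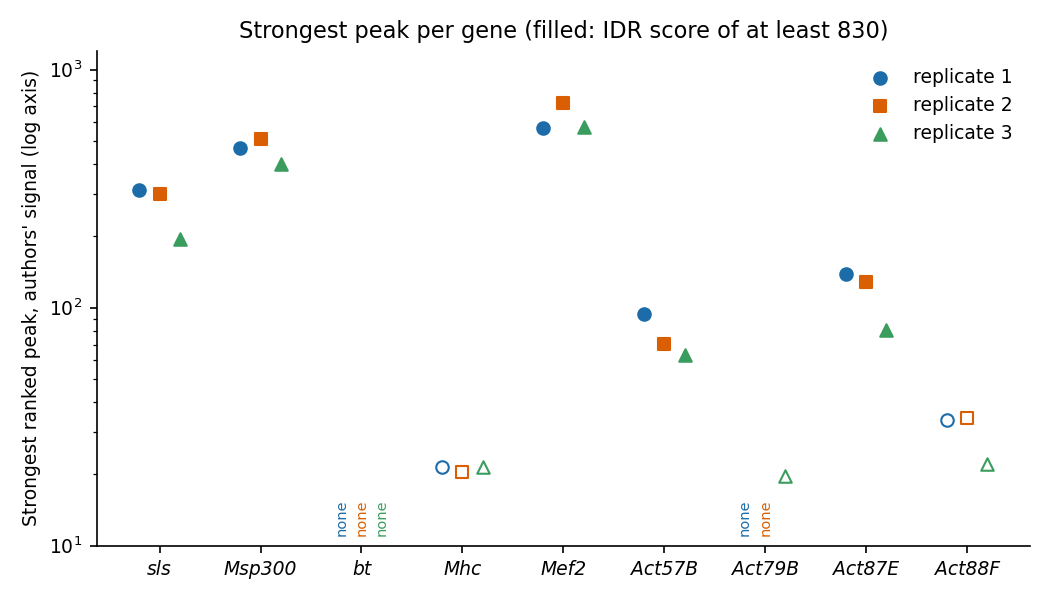
Signal of the strongest ranked peak in the body or within 5 kb of each of the 9 genes, in the authors' units on a log axis, for replicates 1, 2 and 3. Filled symbols have an IDR score of at least 830, the lowest in the thresholded lists, open symbols a lower one, and "none" marks a replicate with no ranked peak. The 5 genes with shared loci lie at or above 63.5 in every replicate, and Mhc, Act79B and Act88F at or below 34.3.

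Because the actin genes resemble each other, reads from their coding exons may be shared between copies or dropped, depending on an alignment step that the sources used here do not describe. The coding sequences of the 4 muscle actins and of the cytoplasmic actins Act5C and Act42A, 1128 bp each, were 84.0% to 91.8% identical in pairs. Act57B and Act87E were the most alike, and their longest identical run was 62 bp. The longest run of any pair was 77 bp, between Act87E and Act5C. No thresholded summit lay in a coding exon of the 6 genes in any replicate. In the ranked lists, 2, 1 and 2 of their coding exons held a summit in replicates 1, 2 and 3. The loci reported for Act57B and Act87E lay outside this coding sequence.

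The place of the 11 loci was compared with that of all shared loci. Within 500 bp of any annotated start lay 5 of the 11 (45.5%), beside 32.0% of all shared loci. Introns held 3 (27.3%) beside 49.4%, and intergenic DNA 3 (27.3%) beside 16.4%. None lay in an exon away from starts. Of the 5 loci at a start, 3 were at a start of a member gene and the others at the starts of Pal1 with Pdrg1 and of Etf-QO. Summits of the replicates spread over a median of 43 bp at the 11 loci and 32 bp at all shared loci. The SD of the percentile had a median of 11.7 beside 8.19.

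The fixed words were counted within 100 bp of each locus centre, on both strands. The MEF2 site, the AT-rich element that Mef2 binds, was found at 5 of the 11 loci (45.5%): both loci of Msp300, the intronic Mef2 locus at 2722 bp, the Act57B locus and the Act87E locus at −340 bp. It was found at 13.3% of all shared loci. In windows of the same width 500 bp to either side, it was in 5 of 22 at the 9 genes (22.7%) and in 6.62% over all shared loci, so it was also more frequent beside the loci of these genes. In the printed sequences it lay −57 and 75 bp from the centre at the Msp300 loci and −9 bp at the Act87E locus. With windows of 50 bp to each side, a width chosen after the data had been seen, 2 of the 11 loci held it. The 201 bp windows had a median GC content of 34.3% (range 20.4% to 40.8%) at the 11 loci and 32.8% (range 14.4% to 67.2%) over all shared loci. Of the 5 loci with the MEF2 site, Act87E at −340 bp had 20.4%, Msp300 at −627 bp 20.9% and Act57B 31.3%. The intronic Mef2 locus had 34.3% and Msp300 at −379 bp 36.3%. The loci without the site ran from 32.3% to 40.8%. Whether base content bears on the MEF2 counts was not tested.

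The E-box word CANNTG, which many myogenic factors bind, was at 5 of the 11 loci and at 56.6% of all shared loci, and was more frequent in the flanks of both (15 of 22 and 65.7%). The GAGA factor word GAGAG was at 1 of the 11 (the Mef2 locus at −4947 bp) and at 23.1% of all. The CArG box of serum response factor was at the strongest locus, that upstream of Mef2 and within Pal1, and at 0.934% of all shared loci. It was also in 1 of the 22 flanks at the 9 genes and in 1.09% of the flanks of all shared loci. AGGTCA was at 1 locus and the CF2 word GTATATATA at 1, and the AP-1 word TGANTCA and the DREF word TATCGATA were at none. AGGTCA and GTATATATA were at 3.47% and 1.07% of all shared loci, and TGANTCA and TATCGATA at 4.62% and 0.641%. A match is a description of the letters and not a binding site.

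**Figure D5:**
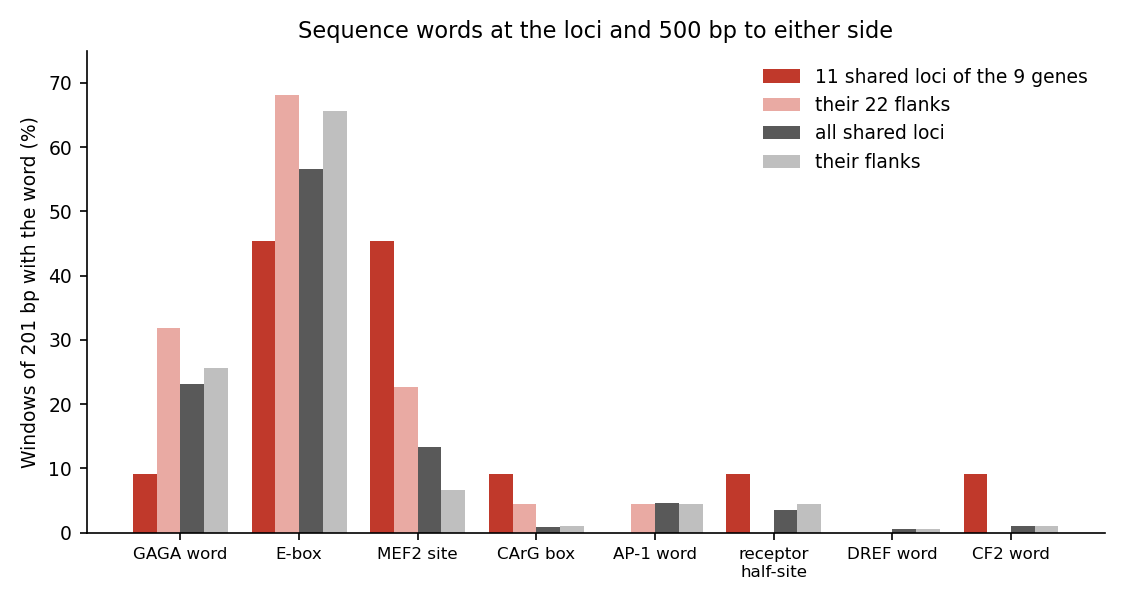
Share of 201 bp windows that hold each of the 8 words (vertical axis, %), at the 11 shared loci of the 9 genes (dark red), in their 22 flanks 500 bp to either side (light red), at all shared loci (dark grey) and in their flanks (light grey). The MEF2 site stands at 45.5% of the 11 loci, above the other 3 bars, and the E-box word is more frequent in the flanks than at the loci in both sets.

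The words most typical of the remaining 3735 shared loci were ranked against their flanks, and the 5 leading words of 7 bases, chosen after their values were seen, were then sought at the members. The word CAGTGTA was found at 8.49% of those loci and in 1.66% of their flanks. CAGTGCA was found at 11.6% of the loci, beside 3.52% in flanks. For AGTGCAC these shares were 7.28% and 2.09%. For CACTGAG they were 6.85% and 1.71%. TAATATA, which is made of A and T, was found at 16.1% of loci beside 5.14% of flanks. At least 1 of the 5 was at 36.1% of those loci and 12.4% of the flanks. At the 9 genes, 3 of 11 loci held at least 1 of them. TAATATA was found at sls (−288 bp), Mef2 (−4947 bp) and Act87E (−340 bp). The Mef2 locus at −4947 bp also held the word CAGTGCA. It was the one member locus with CACTGAG. Neither CAGTGTA nor the word AGTGCAC was found at any of the 11 loci.

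The same count was made for 8 lists of muscle genes, 69 genes with the 9 members and 60 without them. The lists were chosen with earlier results of these data known. Of the 60 other genes, 29 (48.3%) had a shared locus in the body or within 5 kb and 7 (11.7%) had one at a start, beside 32.8% and 9.06% of all protein-coding genes. These genes were long, with a median length of 11.1 kb beside 2.16 kb for all protein-coding genes. Among those under 5 kb 4 of 18 (22.2%) and among those of at least 20 kb 18 of 21 (85.7%) had a shared locus, beside 27.2% and 62% of all protein-coding genes of those lengths. The shares over all protein-coding genes apply to each list that follows, and with 2 to 15 genes a list its count is a description.

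Of the thick filament and titin-like kinase genes, Mhc and bt included, 2 of 9 had a shared locus. The strongest locus at Strn-Mlck, a titin-like kinase, was at percentile 98.9 ± 0.0551 (SD, n = 3), though nearest to the start of CG8320, and that at Mlc2, a myosin light chain, was at 88.7 ± 3.52, nearest to Rsod. fln, Mf, Mlc1 and Obsc, which encode other thick filament or M line proteins, had none. Of the thin filament genes, 5 of 15 had one. The strongest were at Tm1, a tropomyosin (96.0 ± 2.46, nearest to CG4338), tmod, which caps actin filaments (84.8 ± 5.08, at its own start), and Lasp (75.1 ± 2.28, nearest to CG43954). Tm2, TpnC25D, TpnC4 and TpnC41C had none. Of the Z disc genes, 3 of 8 had one. Zasp52, a scaffold of the Z disc, reached 80.5 ± 4.70 at −8942 bp, and l(2)efl, a small heat shock protein, 28.9 ± 12.2, nearest to St1. Actn, Mlp60A, Mlp84B and Zasp66 had none.

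Of the myogenic transcription factors, 5 of 10 had a shared locus, beside 32.8% of all protein-coding genes. None of the 10 had one at a start, where 9.06% of all protein-coding genes did, so the count of 0 is close to that share. nau, the fly MyoD, reached 93.6 ± 2.45 at −4668 bp, Cf2 92.1 ± 0.891 at −4997 bp, and twi 88.2 ± 1.52, each nearest to the start of another gene (CG10365, CG15625 and CG9896). hth had 6 loci and its strongest was at 71.6 ± 5.65, nearest to the start of mir-4944. exd, lmd, salm and sd had none. Of the myoblast fusion genes, 5 of 9 had one. The adhesion gene kirre, 394.149 kb long, had 18, with the strongest at 91.6 ± 2.65, nearest to the start of CG32795. mbc reached 86.4 ± 5.37, blow 72.6 ± 13.1 at its own start, and rst 55.2 ± 22.2, and Crk, hbs, sns and WASp had none.

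Of the muscle attachment genes, 10 of 12 (83.3%) had a shared locus and 5 (41.7%) had one at a start. Over all protein-coding genes the latter share was 9.06%. A shared locus at a start was held by 202 of the 1020 genes of at least 20 kb and by 690 of the 10476 under 5 kb. Pax, which encodes paxillin, was at 98.7 ± 0.696 (SD, n = 3), at −250 bp from its start and nearer still to that of CG13085. stck reached 95.4 ± 1.56 at −1803 bp, and the integrin genes if and mew 87.8 ± 4.44 and 87.8 ± 3.95. The locus at if was nearest to the start of goe. Ilk and parvin, which act with stck in one complex, had none. The 12 attachment genes ran from 2.34 kb (Ilk) to 44.8 kb (sr), with a median of 19.3 kb. Neither length class matches the list: 62% of all genes of at least 20 kb and 27.2% of those under 5 kb had a shared locus. Of the linker genes, 3 of 4 had one: Msp300, klar (81.6 ± 10.2, nearest to lncRNA:CR46002) and shot (47.9 ± 4.62), but not koi. Of the cytoplasmic actins, Act5C had 2, the stronger at 98.6 ± 0.275 and −4691 bp, nearest to lncRNA:CR45668, and Act42A had none.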

How the data were processed

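Each replicate of whole prepupae had a ranked and a thresholded peak list on dm6. Per the deposited README texts, the authors called peaks from 1 replicate's alignment and a control. The aligner and the peak caller were not given in the sources used here. The deposited signal is the authors' value per peak, and the deposited score is a scaled IDR, whose smallest thresholded value was 830. Read depth is unknown. Thresholded summits within 150 bp were joined into loci, and a shared locus holds a summit of all 3 replicates. Gene models came from Ensembl release 115. Percentiles of signal were taken within each list. The whole-series conservative list, called on pooled replicates, entered an alternative and 1 further count. Named genes were the 9 members, up to 4 further genes with a shared locus (by strength) and up to 4 without (alphabetical) of each list, and the genes nearest to a named locus. Members, lists, words and rules were chosen with earlier results of these data known. Counting was tested on simulated data. No test was made. Python 3.11.15, numpy 2.4.6, pandas 2.3.3 and matplotlib 3.10.9 were used. Alternatives changed the join distance, window, threshold, overlap rule, start window, ranking column and word window, or left out a replicate. Coordinates are 1-based.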

Additional observations from a re-analysis of the deposited data

Results flagged for a closer look

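The conservative list of the whole series, called on the pooled replicates and not used in the counts by replicate, held 10370 peaks, of which 21 lay at the 9 genes. All 11 shared loci had one of its peaks within 150 bp, and the genes with a peak were the same 5. Because that list rests on the same 3 replicates, this overlap is no independent check. The other 10 of the 21 peaks had no shared locus within 150 bp: 4 at Mef2, 2 at Msp300, 2 at Act87E and 1 each at sls and Act57B. They drew attention as peaks away from the shared loci. Their percentiles in that list ran from 7.15 to 60.5, and 5 of the 10 fell at loci of 1 or 2 replicates. The list's strongest peaks at Mef2, Msp300 and sls were at percentiles of 99.4, 98.3 and 94.0. bt, Mhc, Act79B and Act88F had none.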

How the results depend on the processing

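No paired analysis was possible because there is 1 group. The count of 11 shared loci became 4 for gene bodies alone, 7 with a window of 1 kb, 5 in the stronger 50% of each list, 6 without loci in or nearer to another gene and 21 in the conservative list. The 5 genes became 3 with summits joined up to 50 bp, 2 for gene bodies alone and 3 in the stronger 50%. The 3 genes with a locus at a start became 0 with a start window of 200 bp. They became 2 with summits joined up to 50 bp, in the stronger 50%, and without loci in or nearer to another gene. The median percentile of 60.9 rose to 80.1 with summits joined up to 50 bp and to 89.4 in the stronger 50%, where weak loci drop out. The 5 loci with a MEF2 site became 3 with summits joined up to 50 bp, 3 for gene bodies alone, 2 in the stronger 50%, 3 without loci in or nearer to another gene and 2 with windows of 50 bp, which was chosen after the data had been seen. Leaving out each replicate gave 12 shared loci and 5 genes each time, with medians between 51.5 and 73.3. In these runs a shared locus needed a summit of both remaining replicates and not of all 3. A window of 10 kb gave 13 loci at 6 genes. Among counts at single genes 91 of 108 values stayed within 1.5 times, and among percentiles of the strongest locus 47 of 51 stayed within the spread between replicates. The 91 include bt, Mhc, Act79B and Act88F, whose 0 stayed 0 except at Mhc with the 10 kb window. Settings that left sls, Act57B or Act87E without a shared locus gave no percentile and are not among the 51. Apart from the alternatives' own construction, the cause of these changes was not tested. The unknown depth limits every statement of absence: a gene without a peak has none past the authors' threshold.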
